A study of Mus musculus with 8 samples.

Results

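The genes of antigen presentation on MHC class II molecules were examined in mouse bone marrow-derived macrophages (BMDMs) after knockdown of the lncRNA MAARS (Gm14461). The 9 genes were chosen by name, from rows of the count table whose Ensembl genes carry these symbols in GENCODE M21: H2-Aa, H2-Ab1, H2-Eb1, H2-DMa, H2-DMb1, H2-DMb2, Cd74, Ciita and Ifi30. They are 9 of 49315 genes in the table, and all 9 were among the 13051 genes with enough counts to be tested. BMDMs were grown from C57BL/6 marrow in 10 ng/ml M-CSF, a growth factor that turns marrow progenitors into macrophages. They were transfected at 25 nM, by the labels, with a gapmeR, an antisense oligonucleotide that makes RNase H cut its target RNA. The control group received a negative control gapmeR (4 libraries, replicates 2, 5, 6 and 7) and the MAARS gapmeR group a gapmeR against MAARS (4 libraries, replicates 9, 11, 13 and 15). All 8 libraries were ribodepleted total RNA of C57BL/6 cells, and none was labelled as treated with interferon. The sources used here do not say whether the libraries of a group came from separate mice or from parallel wells of 1 marrow culture, so the p-values measure the spread between these libraries, which may be technical.

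MHC class II molecules are pairs of an α and a β chain that carry peptides from endosomes to the cell surface, where CD4+ T cells read them. In the endoplasmic reticulum each pair is held by the invariant chain (Cd74), which is cut down in endosomes, and H2-DM then helps to exchange its last fragment for an antigenic peptide. Ifi30, also called GILT, reduces disulfide bonds of antigens in endosomes and lysosomes. Ciita is the coactivator without which class II genes are hardly transcribed, and it is recruited to a short promoter element, the X and Y boxes, by RFX, CREB and NF-Y proteins. Resting macrophages hold little class II, and interferon-γ raises it through IRF1 and Ciita.

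Promoter sequence is shown as a description, and its part in the fold changes that follow was not tested. RefSeq windows from 250 bases before to 50 bases after a transcription start (GRCm38.p6) were found for 6 of the 9 genes (H2-Aa, H2-Eb1, H2-DMa, H2-DMb1, H2-DMb2 and Ifi30). H2-Ab1, Cd74 and Ciita were not in the table used. In the stretches below, read 5′ to 3′ on the strand of the gene, capitals mark the core of the X box (AACNGATG) and the Y box (CCAAT or its reverse complement ATTGG).
H2-Aa, chr17:34287824-34287933, minus strand, bases 110 to 1 before the start: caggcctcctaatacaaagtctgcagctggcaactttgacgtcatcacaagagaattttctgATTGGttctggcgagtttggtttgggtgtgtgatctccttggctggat
H2-Eb1, chr17:34305757-34305866, plus strand, bases 110 to 1 before the start: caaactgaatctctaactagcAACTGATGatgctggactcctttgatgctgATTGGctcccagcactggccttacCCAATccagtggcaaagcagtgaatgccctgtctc
H2-DMb1, chr17:34153092-34153121, plus strand, bases 99 to 70 before the start: acctagtAACTGATGatgctaggctgattc
H2-DMb2, chr17:34145109-34145234, plus strand, bases 140 to 15 before the start: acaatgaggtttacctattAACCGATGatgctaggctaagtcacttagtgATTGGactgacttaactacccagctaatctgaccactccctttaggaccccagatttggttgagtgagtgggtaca
The stretch of H2-DMb1 is kept to 30 bases because GENCODE M21 places it inside the first exon of a longer transcript. The X core was found in 3 of the 6 genes (H2-Eb1, H2-DMb1 and H2-DMb2), against 2.32% of 32851 promoter windows of the same length. In these 3 genes a Y box followed it, with 30 bases between the first bases of the boxes in H2-Eb1 and 31 bases in both H2-DMb1 and H2-DMb2. The Y box without a match to the X core letters was found in H2-Aa, 48 bases before the start, and in 1 of the windows of H2-DMa, 198 bases before it. An X box with other letters would not have been matched. The Y box is common, and 37.4% of all windows hold it. H2-DMb1 and H2-DMb2, whose fold changes below have opposite signs (that of H2-DMb2 was not called), were identical at 26 of 30 bases around the X core (86.7%). An element of interferon-γ response (GAS, TTCNNNGAA) was found in H2-DMb2 only, 218 bases before the start, against 8.3% of all windows, and an interferon-stimulated element (ISRE-type, GAAANNGAA) in none of the 6, against 8.56%. All motifs were searched on both strands, and a match or its absence is a statement about these letters in these windows.

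The libraries held 19287279 to 20567123 counts on genes in the control group and 20839671 to 24541205 in the MAARS gapmeR group, so every MAARS gapmeR library was the deeper. MAARS itself had 238, 296, 240 and 249 counts in the control libraries (replicates 2, 5, 6 and 7) against 163, 161, 159 and 135 after knockdown (replicates 9, 11, 13 and 15). It fell by 0.95 on the log2 scale (SE 0.11, edgeR adjusted p = 5.8e-05), which leaves 51.9% of the control level. Changes were widespread. Of all genes tested 24.0% were called lower and 21.3% higher at an adjusted p under 0.05, and the median log2 fold change of all genes was 0.01. The higher share of the calls was 47.0%, and 60.4% with upper-quartile scaling, which moved that median to 0.07. In bulk RNA, fewer cells of a type and less RNA per cell cannot be told apart.

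Of the 9 class II presentation genes, 8 were lower after MAARS knockdown, beside 24.0% of all genes tested, and 1, H2-DMb2, was not called. None was called higher by edgeR, DESeq2 or limma-voom, and 1 (H2-DMb2) was higher at an unadjusted p under 0.05 in edgeR. A log2 fold change of at least 1.5 is how the limit on size is worded in the methods behind these data. With it required as well, 0 of the 9 were called, and 6 with a fold change of at least 1.5. The share of all genes tested was not computed at these stricter limits, so these counts have no background. The median log2 fold change of the 9 was −1.09, beside 0.01 for all genes tested. In 8 of the 9, every MAARS gapmeR library lay below every control library, and 22.8% of all genes tested showed that order (19.3% showed the opposite one). Sizes differed within the group. The chains of the classical class II molecules, the invariant chain and Ciita were lower by more than 1 log2 unit, the subunits H2-DMa and H2-DMb1 by less, and Ifi30 by little.

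**Figure D1:**
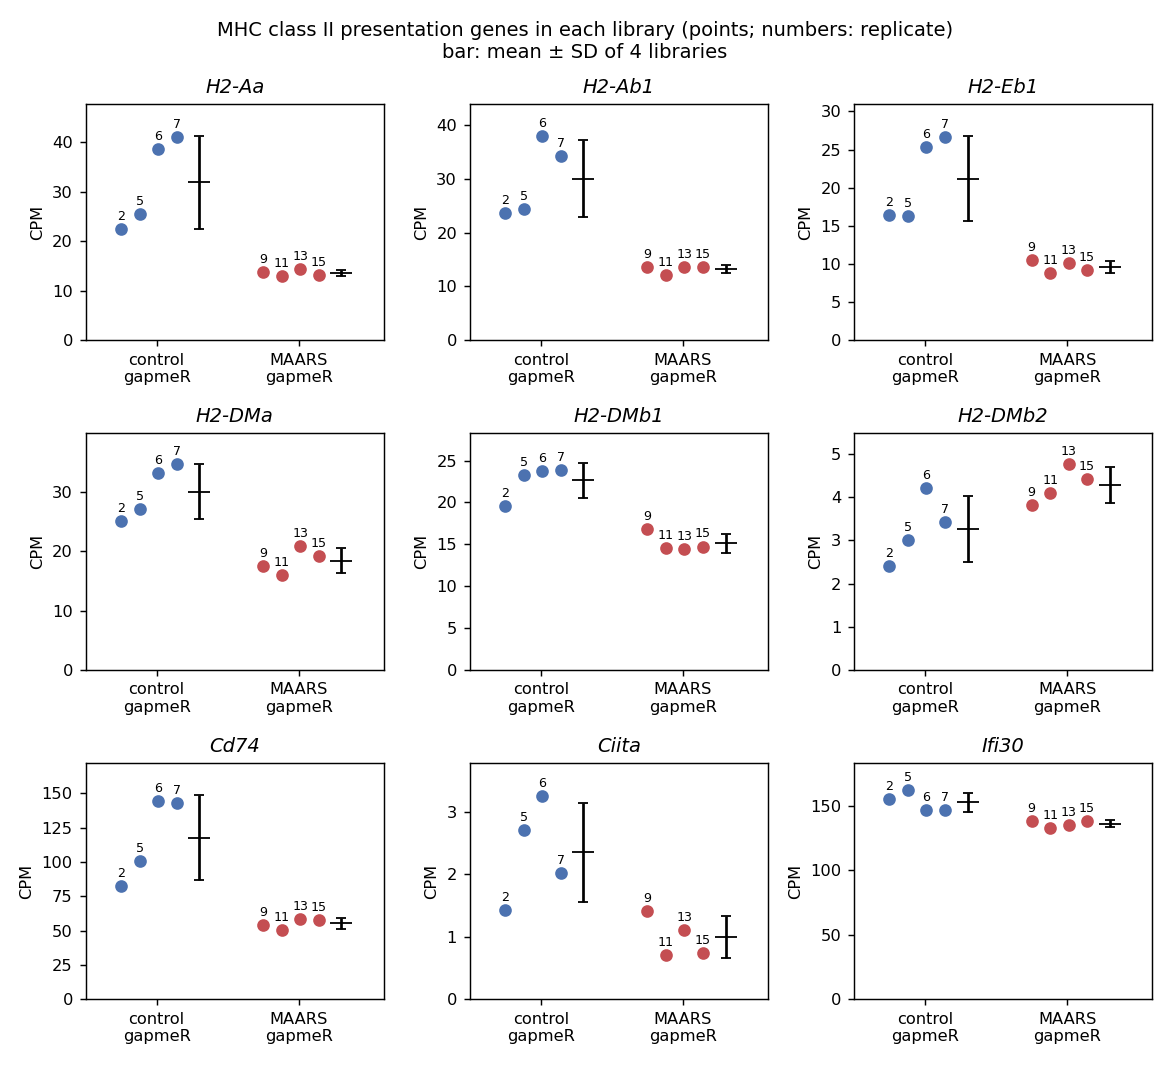
CPM (counts divided by the TMM-normalized library total and multiplied by 1e6; linear axes starting at 0) of each of the 9 genes in each library, with the replicate number above each point and the mean ± SD of 4 libraries beside it. Points of the groups overlap only for H2-DMb2. Control replicates 6 and 7 lie above 2 and 5 for H2-Aa, H2-Ab1, H2-Eb1, H2-DMa, H2-DMb1, H2-DMb2 and Cd74.

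H2-Aa (chr17:34282744-34287823, GRCm38) encodes the α chain of the class II molecule I-A. It had 437, 500, 716 and 836 counts in the control libraries (replicates 2, 5, 6 and 7, in this order throughout) against 292, 327, 311 and 306 counts after knockdown (replicates 9, 11, 13 and 15). The control libraries spread widely, with the highest 1.83 times the lowest after normalization, whereas the MAARS gapmeR libraries lay within 1.1 times of each other. H2-Aa went from 31.9 ± 9.35 CPM in controls to 13.6 ± 0.573 CPM after knockdown (SD, n = 4 each) and fell by 1.23 on the log2 scale (SE 0.17, edgeR adjusted p = 0.000195).

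H2-Ab1 (chr17:34257689-34269419) encodes the β chain that pairs with it. Its counts were 461, 477, 702 and 698 in the control libraries and 288, 305, 297 and 313 in the MAARS gapmeR libraries. The groups did not overlap, and again control replicates 6 and 7 were the highest. H2-Ab1 went from 30.0 ± 7.19 to 13.2 ± 0.739 CPM and fell by 1.18 on the log2 scale (SE 0.15, edgeR adjusted p = 7.41e-05).

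H2-Eb1 (chr17:34305867-34316674) encodes the β chain of I-E. Its counts were 320, 320, 469 and 543 in controls and 222, 222, 219 and 211 after knockdown, with no overlap. It went from 21.2 ± 5.61 to 9.64 ± 0.778 CPM and fell by 1.14 on the log2 scale (SE 0.16, edgeR adjusted p = 0.000232). The gene of the α chain of I-E is disrupted in C57BL/6 mice and is named H2-Ea-ps, a polymorphic pseudogene, in GENCODE M21. Reads were still counted on it, 103, 132, 135 and 172 in controls and 78, 66, 94 and 76 after knockdown, and it fell by 1.00 on the log2 scale (SE 0.18, edgeR adjusted p = 0.000951). H2-Eb2 had no count in any library.

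The invariant chain Cd74, on chromosome 18, was the most abundant of the 9 per length of exon after Ifi30. Its counts were 1610, 1977, 2677 and 2912 in controls and 1149, 1266, 1274 and 1340 after knockdown. The lowest control library lay above the highest MAARS gapmeR library in CPM, 82.4 against 58.5. Cd74 went from 117.7 ± 31.1 to 55.3 ± 3.8 CPM and fell by 1.09 on the log2 scale (SE 0.16, edgeR adjusted p = 0.000206). The same pair of control libraries, replicates 6 and 7, was highest.

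Ciita (chr16:10480059-10528418), the class II coactivator, was scarce. It had 28, 53, 60 and 41 counts in controls and 30, 18, 24 and 17 after knockdown, few enough for counting error to be sizeable. In CPM the groups were apart by a narrow margin, with 1.43 in control replicate 2 and 1.42 in MAARS gapmeR replicate 9. Ciita fell by 1.25 on the log2 scale with the widest error of the 9 (SE 0.31, 95% interval −1.91 to −0.58, edgeR adjusted p = 0.00636).

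The peptide exchange factor H2-DM moved less. Its α subunit H2-DMa (chr17:34119541-34139101) had 492, 534, 614 and 707 counts in controls and 369, 404, 455 and 442 after knockdown. All MAARS gapmeR libraries were lower than all controls, from 30.1 ± 4.6 to 18.4 ± 2.09 CPM, and the log2 fold change was −0.71 (SE 0.11, edgeR adjusted p = 0.000437). H2-DMa shares 10.4% of its exon bases with Brd2 on the opposite strand, and the sources used here do not state whether counting used the strand.

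H2-DMb1 (chr17:34153072-34160230) and H2-DMb2 (chr17:34143307-34151555) lie next to each other and encode alternative β subunits of H2-DM. H2-DMb1 had 382, 458, 439 and 487 counts in controls and 356, 365, 313 and 340 after knockdown. It went from 22.6 ± 2.07 to 15.1 ± 1.16 CPM with no overlap, and its log2 fold change was −0.58 (SE 0.08, edgeR adjusted p = 0.000234). H2-DMb2 had 47, 59, 78 and 70 counts in controls and 81, 103, 104 and 102 after knockdown. The H2-DMb2 groups overlapped in CPM, since control replicate 6 (4.22) lay above MAARS gapmeR replicates 9 (3.83) and 11 (4.1). With 3.27 ± 0.762 CPM in controls and 4.28 ± 0.41 CPM after knockdown, the log2 fold change of H2-DMb2 was 0.39 (SE 0.17, edgeR adjusted p = 0.0837) and was not called. It was called higher with upper-quartile scaling (adjusted p = 0.0481) and without control replicate 6 (adjusted p = 0.0292). Of the 100-base windows of the transcripts of H2-DMb1, 11.3% were also found in those of H2-DMb2, and reads from these stretches may have been given to either gene or to none. The sum of the pair fell by 0.42 on the log2 scale (edgeR adjusted p = 0.00152), an alternative chosen after the counts were seen.

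Ifi30 (chr8:70762774-70766663), the thiol reductase, had the highest level and the smallest change among the called genes. Its counts were 3027, 3181, 2711 and 2985 in controls and 2923, 3340, 2933 and 3182 after knockdown. These overlap as raw counts, and only after division by the normalized library totals did the groups part, at 146.6 CPM or more in controls against 138.3 CPM or less. Ifi30 went from 152.6 ± 7.46 to 136.0 ± 2.57 CPM, a decrease of 10.9% (log2 fold change −0.17, SE 0.05, edgeR adjusted p = 0.0111). With upper-quartile scaling it was no longer called (adjusted p = 0.0764), so its call depended on the scaling. GENCODE M21 places 8.67% of its exon bases opposite the transcript 6330537M06Rik.

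**Figure D2:**
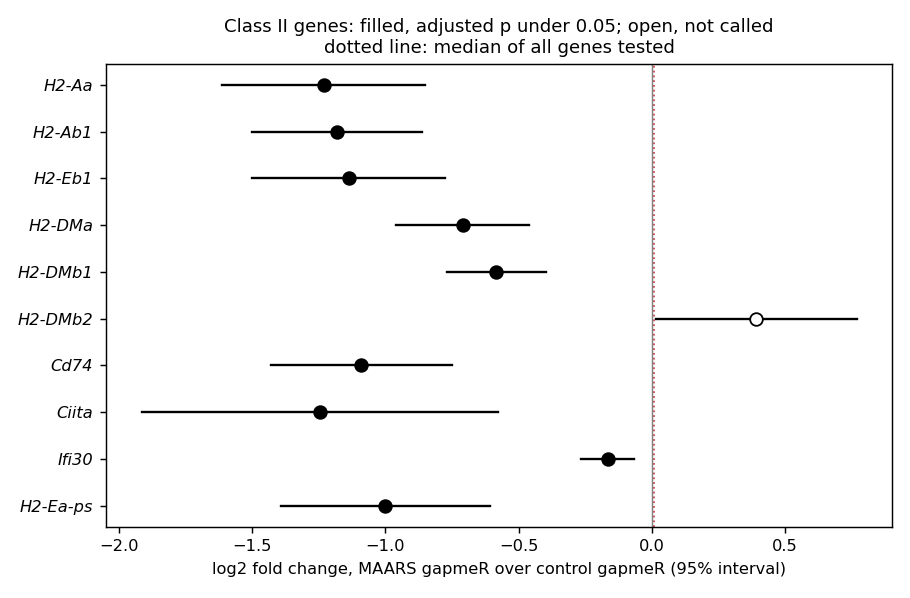
The x axis gives the log2 fold change of MAARS gapmeR over control gapmeR with its 95% interval (edgeR quasi-likelihood fit) for the 9 genes and H2-Ea-ps, and filled points passed an adjusted p under 0.05. The intervals of H2-Aa, H2-Ab1, H2-Eb1, Cd74 and Ciita centre between −1.25 and −1.09, H2-DMa and H2-DMb1 lie at −0.71 and −0.58, Ifi30 at −0.17 and H2-DMb2 on the other side of 0.

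Levels of different genes were compared per kilobase of exon. In controls Ifi30 stood first at 155.5 ± 7.61 CPM per kb, followed by Cd74 at 70.1 ± 18.5 CPM per kb. The classical chains and the main H2-DM subunits formed a group of 5 whose neighbours overlapped in the control libraries, from H2-DMb1 (13.5 ± 1.23 CPM per kb) over H2-Ab1 (11.7 ± 2.8), H2-Eb1 (10.9 ± 2.89) and H2-DMa (8.72 ± 1.33) to H2-Aa (8.4 ± 2.46). H2-DMb2 followed at 1.87 ± 0.436 and Ciita at 0.246 ± 0.083 CPM per kb, each apart from its neighbours. In the MAARS gapmeR libraries H2-DMb1 (8.99 ± 0.687 CPM per kb) no longer overlapped H2-Ab1 (5.16 ± 0.288), and H2-Aa (3.58 ± 0.151) lay below H2-DMa (5.34 ± 0.608). With the longest transcript as the length in place of all annotated exons, H2-Ab1 moved to 24.8 CPM per kb in controls and stood next after Cd74, so the order within the group of 5 rests on the gene models. The order Ifi30, Cd74, this group, H2-DMb2 and Ciita was the same with both lengths.

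Ratios between genes within a library do not depend on the scaling between libraries. The difference of each log2 ratio between the groups was tested by an exact two-sided permutation test over all 70 splits of 4 and 4 libraries, for which the smallest p is 0.0286, and adjusted over 5 ratios. H2-Ab1 to H2-Aa differed by 0.03 on the log2 scale (p = 0.714, adjusted p = 0.714, exact permutation test), with means of −0.07 ± 0.14 in controls and −0.04 ± 0.06 after knockdown (SD). The ratio of the I-A chains was thus within the spread of the control libraries. H2-Eb1 to H2-Ab1 differed by 0.05 (p = 0.457, adjusted p = 0.571, exact permutation test). Cd74 to H2-Aa differed by 0.13 (p = 0.0857, adjusted p = 0.214, exact permutation test). H2-DMa to H2-DMb1 differed by −0.12 (p = 0.4, adjusted p = 0.571, exact permutation test).

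The ratio of the alternative β subunits, H2-DMb2 to H2-DMb1, was different in size. In log2 units it stood at −3.01, −2.95, −2.49 and −2.79 in the control libraries against −2.13, −1.82, −1.58 and −1.73 after knockdown, in the order of replicates given above. Every MAARS gapmeR library lay above every control library, by 0.99 log2 units on average, a ratio 1.99 times the control ratio. Its p was 0.0286, the smallest this design allows, and 0.143 when adjusted over the 5 ratios (exact permutation test), so it did not pass the correction.

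**Figure D3:**
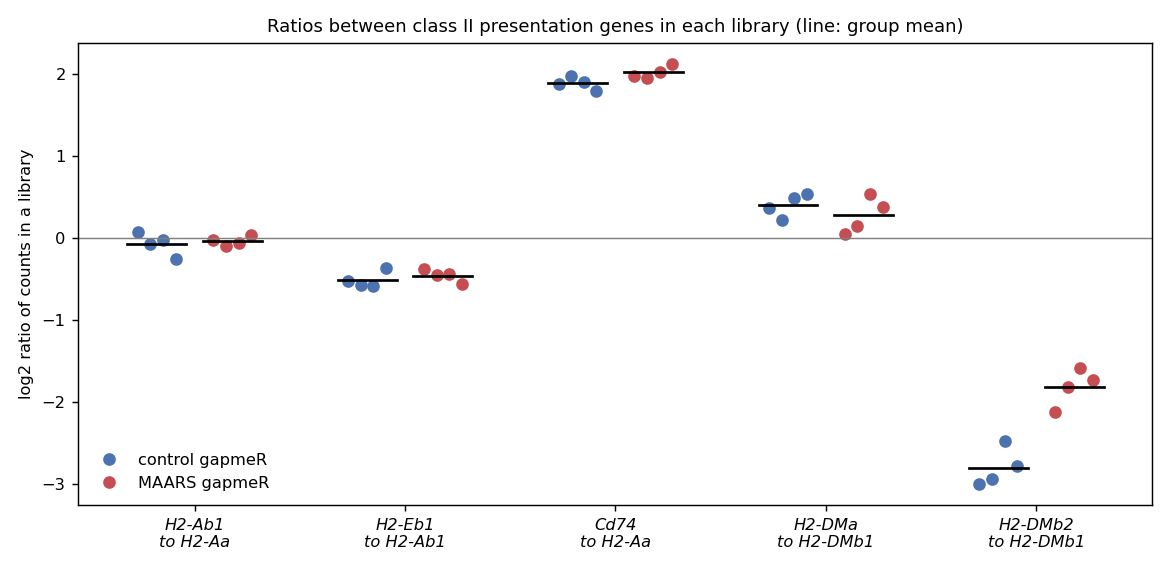
The y axis gives the log2 ratio of the counts (with 0.5 added to each) of a pair of genes within each library, for control gapmeR and MAARS gapmeR libraries side by side, with lines at the group means. The first 4 ratios overlap between the groups, and H2-DMb2 to H2-DMb1 does not, at −2.49 or below in controls and −2.13 or above after knockdown.

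The control libraries differed among themselves for most of the 9 genes. Relative to the control mean on the log2 scale, H2-Aa lay at −0.46 and −0.28 in replicates 2 and 5 and at 0.33 and 0.41 in replicates 6 and 7. Cd74 showed the same split of replicates 2 and 5 from 6 and 7, at −0.47, −0.19, 0.34 and 0.32. Ifi30 ran the other way by small amounts, at 0.02, 0.09, −0.06 and −0.06. The split of control replicates 2 and 5 from 6 and 7 was not particular to the class II genes. Over the genes counted in each pair of libraries, the chi-square per gene was 7.3 between replicates 2 and 5 and 4.02 between 6 and 7. Across the split it was 9.2 to 14.1. After the group means were subtracted, Pearson's r with H2-Ab1 over the 8 libraries was 0.95 for H2-Aa, 0.95 for H2-Eb1, 0.95 for Cd74, 0.85 for H2-DMa, 0.85 for H2-DMb2, 0.57 for H2-DMb1, 0.49 for Ciita and −0.74 for Ifi30. H2-DMb2 followed H2-Ab1 among the controls, though its group means lay in the other order. Relative to the control mean, H2-Ab1 lay at −0.32, −0.27, 0.37 and 0.22 in controls and H2-DMb2 at −0.41, −0.09, 0.40 and 0.10. After knockdown H2-Ab1 lay at −1.11, −1.28, −1.11 and −1.12 and H2-DMb2 at 0.26, 0.36, 0.58 and 0.47. There the lowest library was replicate 11 for H2-Ab1 and replicate 9 for H2-DMb2. The values of r are descriptions over 8 libraries that share their depth and scaling, and the spread of H2-Ab1 was wider among the controls. By the same measure the genes most like H2-Ab1 among all tested were Sbno2 (0.997), Rnf121 (0.984), Tmem86a (0.984), Ms4a6d (0.976) and Usp22 (0.976). With the group difference left in, they were Tmem86a, Sbno2, Ms4a6d, Ctsc and Tlr9.

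H2-DMa, H2-DMb2, H2-DMb1, H2-Ab1, H2-Aa and H2-Eb1 lie in the class II region of chromosome 17, within 197.1 kb (chr17:34119541-34316674). Another 5 genes that overlap this region were tested, and, beside 24.0% of all genes tested, all 5 were lower. They were the peptide transporter genes Tap1 (log2 fold change −1.75, SE 0.14) and Tap2 (−0.83, SE 0.09), the immunoproteasome subunits Psmb9 (−1.17, SE 0.11) and Psmb8 (−1.07, SE 0.10), which serve MHC class I, and Brd2 (−0.27, SE 0.05), a bromodomain gene that is expressed widely. The adjusted p in edgeR was at most 0.000609 for each. H2-DMb2 was the only one of the 11 tested genes here that was not lower. H2-Ob, which with H2-Oa encodes an inhibitor of H2-DM, had at most 5 counts in a library, and H2-Oa at most 10 (0, 8, 10 and 5 in controls, 2, 0, 0 and 1 after knockdown), so neither was tested.

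**Figure D4:**
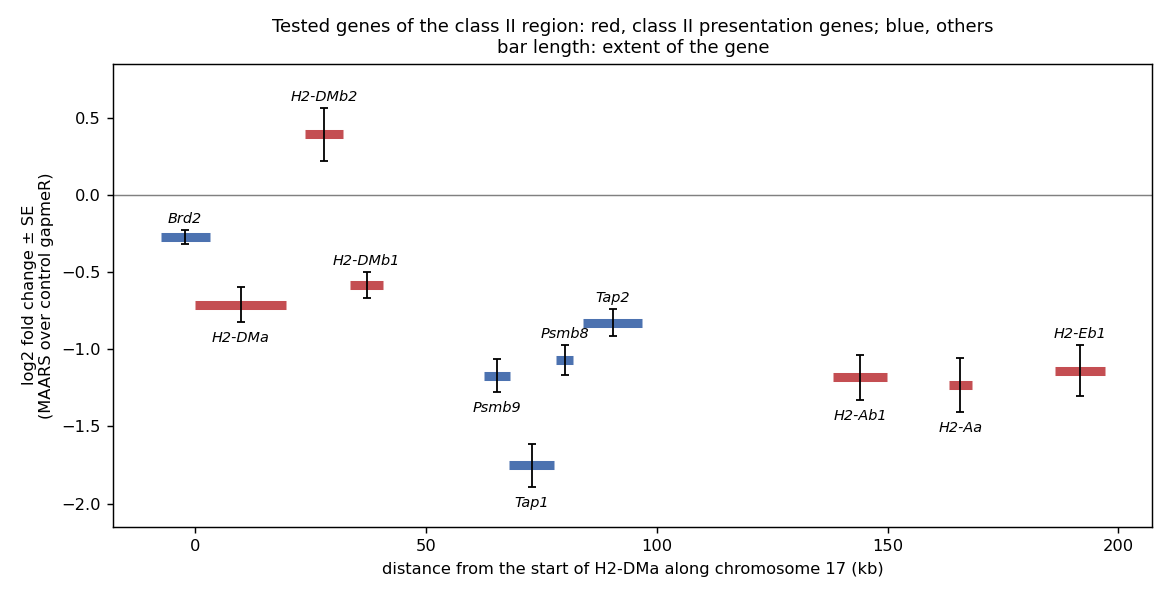
The x axis gives the distance along chromosome 17 from the start of H2-DMa (kb) and the y axis the log2 fold change ± SE of MAARS gapmeR over control gapmeR for the 11 tested genes of the region; bar length is the extent of the gene. All lie below 0 except H2-DMb2 at 0.39, and Tap1 at −1.75 is the lowest.

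The genes that act before, beside and after these were counted by list. Of 10 genes of transcription factors and cofactors at class II promoters, 1 was lower and 1 was higher, beside 24.0% and 21.3% of all genes tested. Their median log2 fold change was −0.07. The subunits of RFX and NF-Y (6 genes) ranged from −0.22 to 0.09, and none of the 6 was called by edgeR, DESeq2 or limma-voom, while 1 (Rfxank, −0.22, adjusted p = 0.0881) had an unadjusted p under 0.05 in edgeR. Creb1, which binds the X box, was higher (log2 fold change 0.28, adjusted p = 0.0188). The acetyltransferase Ep300 fell by 0.20 on the log2 scale (adjusted p = 0.0429), a call that was lost with upper-quartile scaling (adjusted p = 0.133), with counts thinned to the smallest library total, and without any 1 of control replicates 5, 6 and 7 and MAARS gapmeR replicates 11, 13 and 15 (adjusted p = 0.0531 to 0.0876). Its relative Crebbp was not called (−0.14, adjusted p = 0.0777).

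Of 9 genes from the interferon-γ receptor to the Ciita promoter, 6 were lower, beside 24.0% of all genes tested. None of the 9 was higher by edgeR, DESeq2 or limma-voom, and the median log2 fold change was −0.22. The count of 6 was 5 to 7 under the alternatives. It includes the kinase Jak1, named after its value was seen (−0.12, adjusted p = 0.04999), whose call was lost in 10 of 16 alternatives. Of the receptor chains, both named after their values were seen, Ifngr2 was lower (−0.22, adjusted p = 0.00279), and Ifngr1 was not called (0.19, adjusted p = 0.0895) and had an unadjusted p under 0.05 in the other direction. Socs1, a feedback inhibitor of cytokine signalling, fell by 1.39 on the log2 scale (SE 0.23, adjusted p = 0.000515). Irf1, a transcription factor that acts on the Ciita promoter, fell by 0.68 (SE 0.11, adjusted p = 0.00056), and the kinase Jak2 by 0.42 (SE 0.08, adjusted p = 0.00189).

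Of 9 genes of endosomal proteolysis, 4 were lower, beside 24.0% of all genes tested, and 5 were not called, with a median of −0.07. The 4 were Ctss (−0.57), the protease that takes the invariant chain apart in its last steps, Ctsh (−0.84), Ctsz (−0.70) and Sppl2a (−0.53), which cleaves the remaining invariant chain stub within the membrane. The adjusted p in edgeR was at most 0.000311 for each. Of 14 genes of surface turnover and trafficking, 7 were lower and 2 were higher, beside 24.0% and 21.3% of all genes tested. Their median was −0.11, and only 3 were lower with upper-quartile scaling. March1, a ubiquitin ligase that sends surface class II to degradation, fell by 0.61 (SE 0.10, adjusted p = 0.000506), and the tetraspanin Cd82 was lower as well (−0.27, adjusted p = 0.00435). The tetraspanins Cd9 (0.63, adjusted p = 0.00857) and Cd81 (0.51, adjusted p = 0.00428) were higher. Another pair of tetraspanins, named after their values were seen, was lower, Tspan33 (−0.42, adjusted p = 0.0135) and Cd63 (−0.15, adjusted p = 0.0307), and the call of Cd63 was lost with upper-quartile scaling (adjusted p = 0.161) and without any 1 of control replicates 5 and 6 and MAARS gapmeR replicates 11, 13 and 15.

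All 12 genes of the MHC class I route were lower, beside 24.0% of all genes tested. Their median log2 fold change was −1.10, close to the −1.09 of the class II presentation genes. Besides Tap1, those with the smallest p were Psme2 (−1.12), an activator of the proteasome, Tapbp (−1.27), which bridges class I molecules to the transporter, and Psmb8. The difference between the class I and class II lists was not tested.

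**Figure D5:**
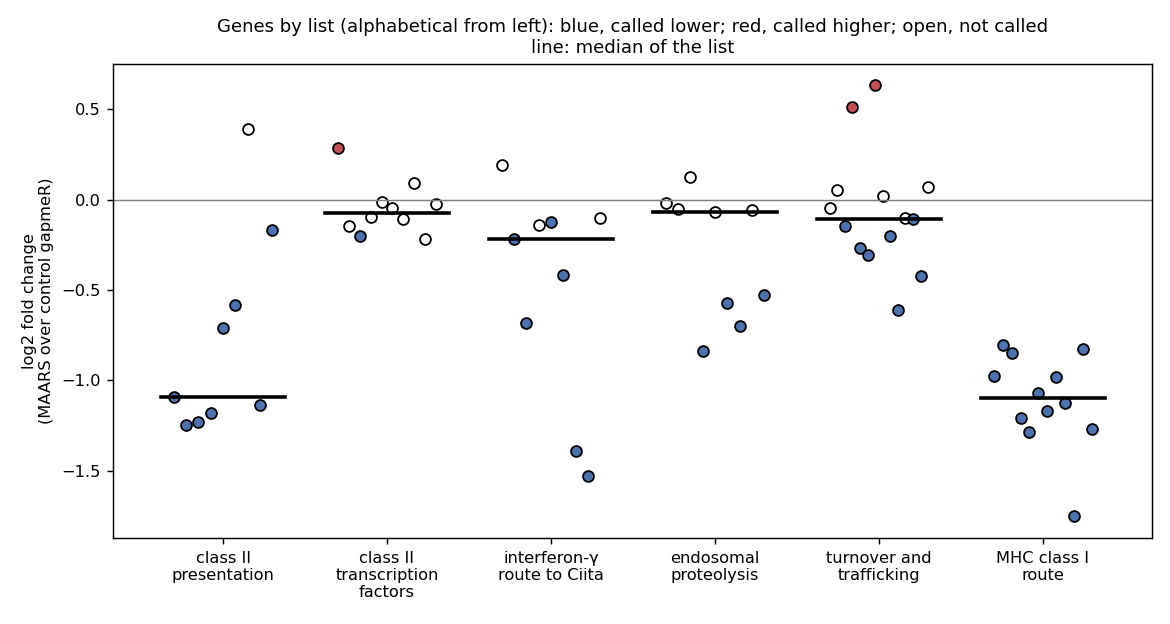
The y axis gives the log2 fold change of MAARS gapmeR over control gapmeR for each tested gene of the 9 class II presentation genes and of 5 related lists, with a line at the median of each list; blue points were called lower, red points higher and open points neither. The medians of class II presentation (−1.09) and the class I route (−1.10) lie far below those of the other lists (−0.07 to −0.22).

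Macrophages, and other cells that carry class II or that a marrow culture can hold, were looked for by their markers. Of 8 macrophage markers, 2 were lower and 5 higher, beside 24.0% and 21.3% of all genes tested. Their summed level was 13836 to 17118 CPM in controls and 17011 to 20241 CPM after knockdown. The largest part of it was Lyz2, at 9402 ± 1240 CPM in controls and 13170 ± 1172 CPM after knockdown. The 3 defining markers alone summed to 4427 to 4826 CPM in controls and 4465 to 4810 CPM after knockdown. The defining macrophage genes were abundant in every library, with Adgre1 at 1296 ± 65.3 and 1332 ± 36.4 CPM (not called), Csf1r higher (log2 fold change 0.45) and Cd68 lower (−0.34). The other marker that was lower was Fcgr1 (−2.09), an Fc receptor, and the other 4 that were higher were Cd14 (0.74) and, named after their values were seen, Lyz2 (0.49), Mertk (0.19) and Itgam (0.18). The call of Mertk (adjusted p = 0.0418) was lost without any 1 of control replicates 2, 5, 6 and 7 and MAARS gapmeR replicates 9 and 13 (adjusted p up to 0.123). The 8 dendritic cell markers summed to 20.5 to 26.5 CPM in controls and 26.1 to 30.9 CPM after knockdown, nearly all of it Itgax, which macrophages also express and which was higher (0.34, adjusted p = 0.00393). Their 4 defining genes, Flt3, Zbtb46, Xcr1 and Clec9a, had at most 24 counts in a library and summed to 0.973 to 2.43 CPM in controls and 1.26 to 1.47 CPM after knockdown. Zbtb46, the only one of the 4 that was tested, had 8, 10, 20 and 10 counts in controls and 18, 22, 13 and 24 after knockdown. It was not called (log2 fold change 0.45, adjusted p = 0.305). Xcr1 was lower in CPM in every MAARS gapmeR library than in every control, an order that 22.8% of all genes tested showed. It stood at 0.682 ± 0.194 CPM in controls and 0.201 ± 0.101 CPM after knockdown. Its counts, 9, 12, 17 and 15 in controls and 5, 4, 7 and 2 after knockdown, were too few for the filter. Clec9a (2, 15, 5 and 5 against 3, 7, 9 and 3) and Flt3 (0, 1, 3 and 2 against 1, 3, 3 and 0) were too low as well.

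Of 6 B cell markers, 2 were tested, and neither was called by edgeR, DESeq2 or limma-voom or had an unadjusted p under 0.05 in edgeR. The defining B cell genes Ms4a1 and Pax5 had at most 4 counts in a library and summed to 0.154 to 0.246 CPM in controls and at most 0.046 CPM after knockdown. Of 6 T cell markers only Cd4, which macrophages can express, was tested, and it fell by 0.68 on the log2 scale (adjusted p = 0.000126), while the defining genes Cd3e and Cd3d had at most 2 counts in a library. Of 5 granulocyte markers, 4 were tested, and none was called by edgeR, DESeq2 or limma-voom or had an unadjusted p under 0.05 in edgeR. Their defining genes Ly6g, Mpo and Elane summed to 2.8 to 8.74 CPM in controls and 2.03 to 4.18 CPM after knockdown. The part of these markers in the levels of the class II genes was not tested.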

How the data were processed

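BMDM libraries (4 control gapmeR, 4 MAARS gapmeR) were grouped by their labels. Per the submitters' processing notes and the paper's methods, the authors trimmed reads with Trimmomatic 0.36, aligned them with STAR 2.5.2b to mouse build GRCm38 (mm10) and assigned them to genes with featureCounts from Subread 1.5.2. The deposited values are raw counts of 49315 genes, not normalized. Strand use and the treatment of reads that map to several genes are not given in the sources used here, and either could move counts between H2-DMb1 and H2-DMb2 or between overlapping genes.

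From the counts, genes were kept by filterByExpr (minimum count 10, minimum total count 15) and compared with edgeR 4.0.16 (TMM factors, glmQLFit, glmQLFTest) in R 4.3.3, and p-values were adjusted after Benjamini and Hochberg over all 13051 tested genes. Every adjusted p printed without the name of another test, scaling or left-out library is from this fit, and a gene is called at an adjusted p under 0.05. An SE is the size of the log2 fold change over the root of its F value. Log2 ratios of counts used 0.5 added to each. DESeq2 1.42.0, limma 3.58.1, other scalings and filters, and leaving out each library were alternatives. The procedure was tested on simulated counts. Totals of 19287279 to 24541205 counts per library set the precision, and libraries of a group differed by more than sampling noise (chi-square per gene between 4.02 and 14.1 for each pair). Positions and lengths came from GENCODE M21, which holds 99.47% of the genes, and promoter windows from RefSeq.

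The genes and lists were chosen with earlier results of these data known. Named were MAARS, the 9 genes, other class II genes, the tested genes of the region, the 4 smallest p of each list, defining markers and the 5 genes most like H2-Ab1, of which some are not reported here.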

Additional observations from a re-analysis of the deposited data

Results flagged for a closer look

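Among 20 sets of 4 libraries (the 9 class II presentation genes and MAARS in each group), 3 held a library that stood apart from the others of its group by Dixon's test. Chance flags about 1 in 20 such sets. For H2-Ab1, MAARS gapmeR replicate 11 was the lowest at 12.1355 CPM, with the nearest library at 13.6 CPM. For H2-DMb1, control replicate 2 was the lowest at 19.5587 CPM, with the nearest at 23.3 CPM, and MAARS gapmeR replicate 9 was the highest at 16.8392 CPM, with the nearest at 14.7 CPM. None of these libraries crossed into the range of the other group, and both genes were called lower without each of them.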

How the results depend on the processing

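Results were recomputed with edgeR under RLE or upper-quartile factors, no filter on low counts, a mean of at least 10 counts, a robust prior and each library left out, with DESeq2 and limma-voom, and, chosen after seeing the data, with counts thinned to the smallest total. H2-Aa, H2-Ab1, H2-Eb1, H2-DMa, H2-DMb1, Cd74 and Ciita stayed lower and called under all of these, and so did MAARS (log2 fold change −1.01 to −0.88) and H2-Ea-ps. The count of class II presentation genes called was 8 or 9, and 0 to 1 higher (H2-DMb2), with a library left out. It was 0 where a log2 fold change of at least 1.5, as the study's methods word the limit, was also required, and 6 with a fold change of at least 1.5. No share of all genes was computed at these limits. With upper-quartile factors 1 of the 9 was higher (H2-DMb2), 0 class II transcription factors were lower, 1 gene of the interferon-γ route was higher and 3 genes of turnover and trafficking were lower. With DESeq2 2 other class II genes (H2-Ea-ps and H2-Oa) and 1 dendritic cell marker were lower. With no filter 2 other class II genes, 1 dendritic cell marker and 1 granulocyte marker were lower, and 1 gene of the interferon-γ route and 2 dendritic cell markers were higher. With thinned counts 0 class II transcription factors were lower.

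With a library left out, 0 to 1 class II transcription factors were lower, 4 to 6 genes of turnover and trafficking were lower, and 0 to 1 genes were higher in the interferon-γ route and in endosomal proteolysis. For the marker lists, 0 to 1 dendritic cell and 0 to 1 granulocyte markers were lower and 0 to 1 B cell markers higher. The log2 fold change ran from −0.0819 to 0.25 for Cd79b and from −0.50 to 0.0332 for S100a8, neither of them called in any of these, and the log2 difference of H2-Ab1 to H2-Aa from −0.0321 to 0.0803. H2-DMb2 to H2-DMb1 stayed higher (0.91 to 1.10). With windows of 200 bases before the start, the GAS letters were found in 0 genes. The causes of these shifts were not tested. No paired analysis was possible because the groups share no replicate numbers. Low counts limit Ciita, H2-DMb2 and the markers of other cells.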
